A study of Homo sapiens with 6 samples.

Results

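The genes described here are 10 genes of polyamine synthesis, control, breakdown and salvage: ODC1, AMD1, SRM, SMS, OAZ1, OAZ2, AZIN1, SAT1, SMOX and MTAP. They were taken by gene symbol from a table of 63677 genes. Each symbol had a single Ensembl identifier, and all 10 passed the filter on low counts that left 15949 genes for testing. Strand-specific RNA sequencing was done on RPMI-8402, a human T-cell acute lymphoblastic leukaemia (T-ALL) line that expressed Cas9 stably in every sample, controls included. The DOX group (3 libraries, numbered 12, 24 and 36 in the count columns) had received doxycycline, which switches on guide RNAs. The DMSO group (3 libraries, numbered 11, 23 and 35) had received the solvent DMSO and is labelled with a control genotype. Both were harvested after 72 hours. The series text names MYC and MYCN as guide targets, the treatment text names only MYC, and DOX samples carry the genotype label of a MYCN knockout. Whether the cells were a clone or a pool is not given in the sources used here. Cells given doxycycline without guides were not analysed here, and a drug response cannot be told apart from a response to the guides.

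Polyamines (putrescine, spermidine and spermine) are small positively charged molecules that bind RNA and DNA and that dividing cells need. Ornithine decarboxylase (ODC1) makes putrescine, and aminopropyl groups from decarboxylated S-adenosylmethionine (made by AMD1) extend it to spermidine (by SRM) and spermine (by SMS). Antizymes (OAZ1, OAZ2) bind ODC1 and carry it to the proteasome, the antizyme inhibitor AZIN1 takes antizymes away from ODC1, SAT1 and SMOX break polyamines down, and MTAP recycles the methylthioadenosine that the synthases release. ODC1 is a classical MYC target gene, bound through E-boxes, which are CACGTG words in its DNA.

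Totals ran from 28602145 to 29204148 counts per library. Levels are given as CPM, which are read counts scaled by the library total and by edgeR's TMM normalisation factor. This factor was 0.959 for DMSO 11 and lay from 0.989 to 1.02 for the other libraries. Where libraries lie close together, the place of DMSO 11 among them can depend on this factor. The targeted gene MYCN had 46.2, 50.0 and 53.7 CPM in DOX and 76.8, 110 and 86.9 CPM in DMSO 11, 23 and 35. MYC had 206, 200 and 193 CPM in DOX and 279, 201 and 256 CPM in DMSO 11, 23 and 35. MYCN was thus lower in every DOX library than in every DMSO library, while MYC overlapped, and neither passed edgeR's quasi-likelihood test (Benjamini-Hochberg adjusted p = 0.0726 and 0.176), while DESeq2 called MYCN (adjusted p = 1.08e-05). Of 13 T-cell and T-ALL markers, 12 had a mean of at least 1 CPM, the exception being LMO2. Of the B-cell markers 2 of 5 did and of the myeloid markers 0 of 6, with MS4A1 and CD33 at 0 counts. The library DMSO 11 differed from the rest of its group, with a mean chi-square per gene of 83.1 and 72.3 against them, where DMSO 23 and DMSO 35 had 13.9 between them and pairs of DOX libraries 4.61 to 5.37. Without DMSO 11, MYCN stood at a log2 fold change of -0.98 (edgeR adjusted p = 2.26e-07) and MYC at -0.20 (0.0566), and the fold changes of the genes described are given without it as well. Separate cultures are not stated for the libraries, so the spread that p-values are measured against may be technical.

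The E-boxes of the 2 members that hold CACGTG near a start site, ODC1 and SRM, are shown because MYC family proteins bind this word. The sequences are from RefSeq on GRCh38.p14, a later build than the hg19 that the labels name, and are given 5′ to 3′ on the gene's strand, with CACGTG, or the overlapping pair CACGCG and CGCGTG, in capitals. The SRM stretch is the 250 bases before its start site, and its E-box begins 199 bases before that site. For ODC1 the table holds 2 start sites 315 bases apart. The words CACGCG and CGCGTG overlap in the window of the upstream site, and 2 CACGTG words lie 286 and 320 bases downstream of that site.
SRM promoter, chr1:11060019-11060268, minus strand: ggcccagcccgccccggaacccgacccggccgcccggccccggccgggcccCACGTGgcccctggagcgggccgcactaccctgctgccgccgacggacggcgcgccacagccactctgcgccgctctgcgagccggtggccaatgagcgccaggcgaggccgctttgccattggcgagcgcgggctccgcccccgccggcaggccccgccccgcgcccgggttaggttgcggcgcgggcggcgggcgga
ODC1 upstream word, chr2:10448519-10448548, minus strand: gggggcgggggcCACGCGTGgggcaggcgg
ODC1 first E-box, chr2:10448024-10448053, minus strand: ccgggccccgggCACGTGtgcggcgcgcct
ODC1 second E-box, chr2:10447990-10448019, minus strand: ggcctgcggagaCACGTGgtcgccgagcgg
Windows of 300 bases (250 before to 50 after the start) were available for 8 of the 10 members, all but SMOX and AZIN1. CACGTG was found in those of 2 members, and in 8.77% of the 27305 genes with such a window. CACGCG, read on both strands, was found in the windows of ODC1 alone among the 8, and in 13.5% of all genes. No window of AMD1, SMS, SAT1, OAZ1, OAZ2 or MTAP held either word, which says nothing of binding outside these windows.

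Across the 10 genes, edgeR's quasi-likelihood test called 0 at an adjusted p of 0.05, against 5 of 15949 genes tested (0.0313%), and limma voom also called 0. DESeq2's Wald test called 1 of the 9 members with an adjusted p, SMOX, as lower in DOX, where it called 9.81% of all genes, 6.44% as lower and 3.37% as higher. At an unadjusted edgeR p under 0.05 there was again 1 member, SMOX, against 26% of all genes. The median log2 fold change was -0.04 over the 10 members, with 4 positive and 6 negative, and -0.00 over all genes. The DOX libraries were all lower than the DMSO libraries in 1 member, AZIN1, and all higher in 0 members, where 30.2% of all genes had no overlap between groups (15.6% lower and 14.6% higher). Without DMSO 11, edgeR called 5 of the 10 members, AMD1, OAZ1 and OAZ2 as higher and AZIN1 and SMOX as lower in DOX, in a fit that called 49.4% of all genes (23.7% higher and 25.7% lower). The members' share of calls in that fit was close to the background. In bulk RNA such as this, fewer cells with a transcript and less of it per cell cannot be told apart.

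**Figure D1:**
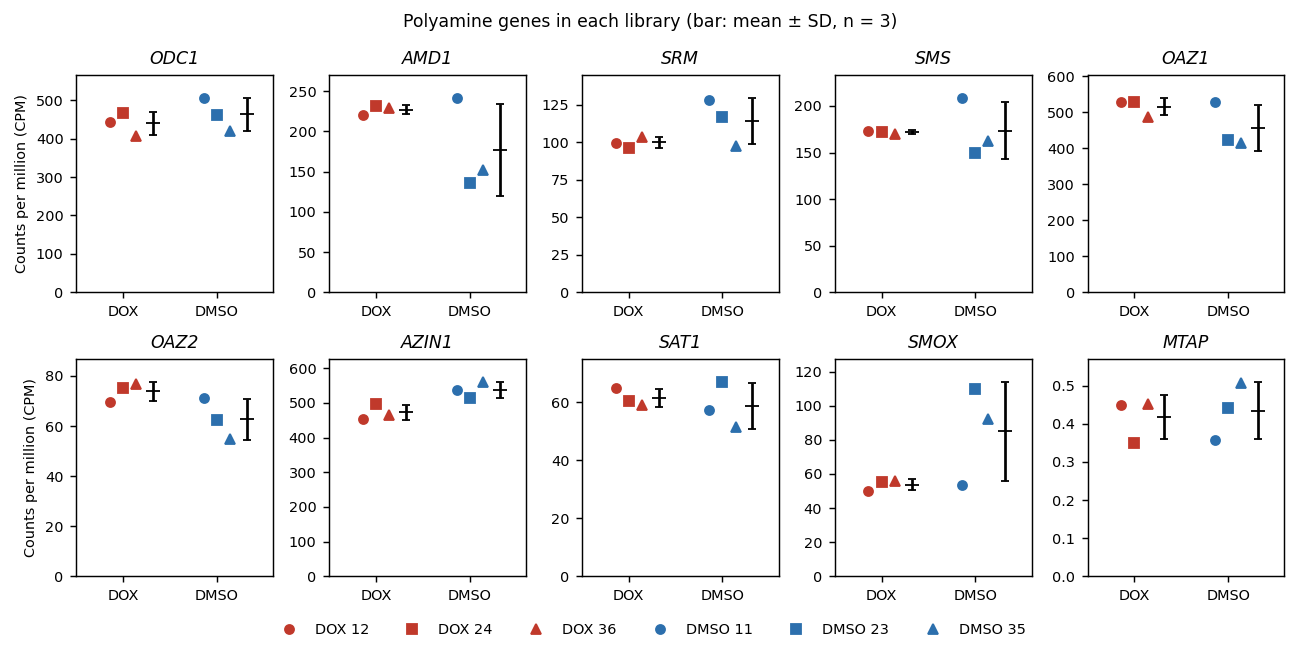
CPM of the 10 polyamine genes in each library (y axis, from 0, with its own scale per gene), DOX in red and DMSO in blue; the black bar is the mean ± SD of 3 libraries. In AMD1 and SMOX the DOX libraries lie close together, and DMSO 11 lies near them and away from DMSO 23 and DMSO 35.

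ODC1, the rate-limiting enzyme of polyamine synthesis, did not pass the test. Its mean CPM, not corrected for length, stood at the 98.0 percentile of the tested genes. It had 445, 468 and 408 CPM in DOX and 507, 463 and 421 CPM in DMSO 11, 23 and 35. The groups overlapped, with DOX 24 above DMSO 23 and DMSO 11 the highest library. Its log2 fold change was -0.07 ± 0.10 (SE), with a 95% interval of -0.31 to 0.17 and an edgeR adjusted p of 0.666. Without DMSO 11 it was -0.01, with an interval of -0.16 to 0.15.

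AMD1, which decarboxylates S-adenosylmethionine and so supplies the aminopropyl groups, gave the largest positive fold change of the 10 genes. It had 221, 232 and 229 CPM in DOX and 242, 136 and 152 CPM in DMSO 11, 23 and 35. The DOX libraries lay close together, above DMSO 23 and DMSO 35 and below DMSO 11. AMD1 had a log2 fold change of 0.36 ± 0.19, with a 95% interval of -0.08 to 0.81 and an edgeR adjusted p of 0.264. Without DMSO 11 it was 0.66, with an interval of 0.51 to 0.80, and edgeR called it (adjusted p = 2.12e-07).

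SRM, the spermidine synthase, had 99.4, 96.6 and 104 CPM in DOX and 128, 117 and 97.8 CPM in DMSO 11, 23 and 35. DMSO 11 and DMSO 23 stood above every DOX library, while DMSO 35 lay among them. The log2 fold change was -0.19 ± 0.11, with a 95% interval of -0.44 to 0.05 and an edgeR adjusted p of 0.279, and without DMSO 11 it was -0.10 with an interval of -0.26 to 0.05. Neither ODC1 nor SRM thus passed the test with or without DMSO 11. Whether fold changes differ between genes with and without CACGTG words was not tested. SMS, the spermine synthase, which lies on the X chromosome, had 174, 172 and 169 CPM in DOX and 209, 150 and 162 CPM in DMSO 11, 23 and 35. Its DOX libraries stood between DMSO 11 above and the other DMSO libraries below. The log2 fold change of SMS was -0.02 ± 0.12 and turned to 0.14 without DMSO 11, and neither value passed edgeR's test (adjusted p = 0.947 and 0.0816).

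Both antizymes had positive fold changes that did not pass the test over all 6 libraries. OAZ1, the major antizyme, whose protein is made only when the ribosome shifts frame in response to polyamines, had 530, 530 and 488 CPM in DOX and 529, 424 and 414 CPM in DMSO 11, 23 and 35. DMSO 11 was level with DOX 12 and DOX 24, and the other DMSO libraries were below all DOX libraries. The log2 fold change was 0.18 ± 0.12, with a 95% interval of -0.09 to 0.45 and an edgeR adjusted p of 0.344, and it was 0.30 without DMSO 11 (adjusted p = 0.00151). OAZ2, a less abundant antizyme, had 69.5, 75.3 and 76.7 CPM in DOX and 71.2, 62.3 and 54.7 CPM in DMSO 11, 23 and 35. Only DOX 12 was below the highest DMSO library, DMSO 11. Its log2 fold change was 0.24 ± 0.11, with an interval of -0.01 to 0.48 and an adjusted p of 0.206, and it was 0.33 without DMSO 11 (adjusted p = 0.000909).

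AZIN1, the antizyme inhibitor, which resembles ODC1 but lacks its enzyme activity, was the member whose groups were separate. It had 455, 498 and 465 CPM in DOX and 537, 515 and 561 CPM in DMSO 11, 23 and 35. Every DOX library was below every DMSO library, and DMSO 11 lay between the other DMSO libraries. AZIN1 had a log2 fold change of -0.19 ± 0.09, with a 95% interval of -0.39 to 0.02 and an edgeR adjusted p of 0.226. The two-sided exact permutation test gave p = 0.1, the smallest that 3 libraries against 3 allow. Any gene with separate groups gets this value, so it adds nothing to the separation itself. Without DMSO 11 the fold change was again -0.19, and edgeR called it (adjusted p = 0.0363).

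**Figure D2:**
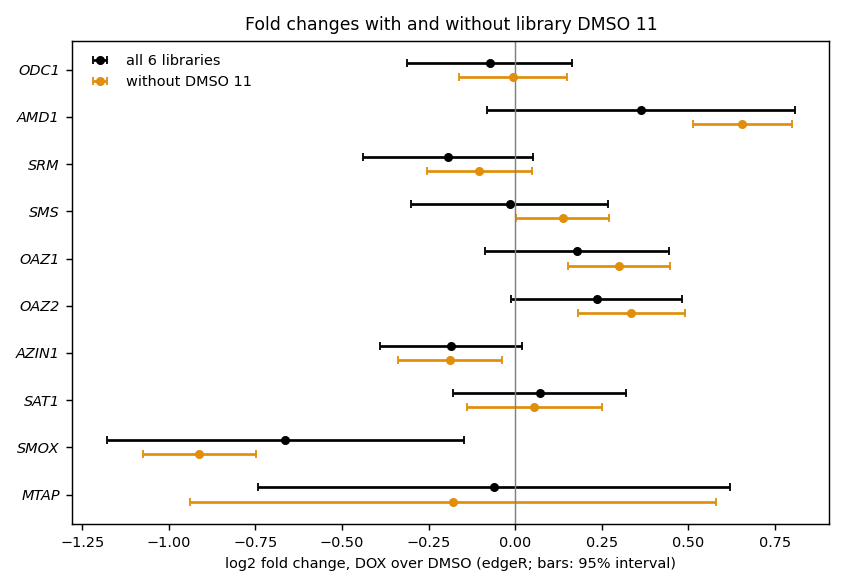
Log2 fold change of each polyamine gene, DOX over DMSO, from edgeR (x axis), with all 6 libraries in black and without DMSO 11 in orange; bars are 95% intervals. AMD1 stands at 0.36 and at 0.66 without DMSO 11, SMOX at -0.66 and -0.91, while ODC1 and SAT1 stay near 0 in both fits.

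Of the 10 genes, SMOX had the largest fold change in size. It encodes the spermine oxidase, which turns spermine back into spermidine and releases hydrogen peroxide, and had 50.0, 55.2 and 56.0 CPM in DOX and 53.3, 110 and 92.1 CPM in DMSO 11, 23 and 35. DMSO 11 lay among the DOX libraries, and the other DMSO libraries lay above all of them. SMOX had a log2 fold change of -0.66 ± 0.23, with a 95% interval of -1.18 to -0.15. DESeq2 called SMOX as lower in DOX (adjusted p = 0.0422), and edgeR did not (adjusted p = 0.129). Among the members with an adjusted p in the authors' deposited table, all but MTAP, SMOX had the lowest (0.0363). Its log2 fold change there was -0.67. Without DMSO 11 it was -0.91, with an interval of -1.07 to -0.75 and an edgeR adjusted p of 1.67e-08, and without DMSO 23 it was -0.44 (adjusted p = 0.351).

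SAT1, the acetyltransferase that marks spermidine and spermine for export or oxidation, had 65.1, 60.5 and 59.2 CPM in DOX and 57.5, 67.1 and 51.4 CPM in DMSO 11, 23 and 35. The DOX libraries lay inside the range of the DMSO libraries, and DMSO 11 was in the middle of its group. Its log2 fold change was 0.07 ± 0.11, with an interval of -0.18 to 0.32 and an edgeR adjusted p of 0.696. Without DMSO 11 it was 0.06, with an interval of -0.14 to 0.25 (adjusted p = 0.641).

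MTAP, the methylthioadenosine phosphorylase, was close to undetected in both groups. It held 13, 10 and 13 reads in DOX and 10, 13 and 15 reads in DMSO 11, 23 and 35, which was 0.35 to 0.45 CPM in DOX and 0.36 to 0.51 CPM in DMSO. Its mean CPM stood at the 4.18 percentile of the tested genes, where the other 9 members stood at the 72.8 to 98.3 percentile. Its log2 fold change was -0.06 ± 0.30, with a 95% interval of -0.74 to 0.62, so these counts left room for a change of up to about that size in either direction. Without DMSO 11 it was -0.18, with an interval of -0.94 to 0.58 (edgeR adjusted p = 0.703). MTAP lies on chromosome 9 beside CDKN2A, in a stretch of 9p21 that is often deleted in T-ALL. CDKN2A and CDKN2B-AS1 held 0 reads in every library and CDKN2B 2 reads in all, both in DOX 36. Before MTAP in chromosome order, KLHL9 held 2448 to 2575 reads in DOX libraries and 2322 to 2979 in DMSO libraries, and after CDKN2B, DMRTA1 held 41 to 50 in DOX and 31 to 35 in DMSO. The interferon genes IFNB1, IFNA1 and IFNE between FOCAD and MTAP held 1, 0 and 0 reads over all libraries. Copy number was not measured, and a low count of a gene does not show whether its DNA is present. The MTAP pseudogene MTAPP1 held 4 reads over all libraries.

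**Figure D3:**
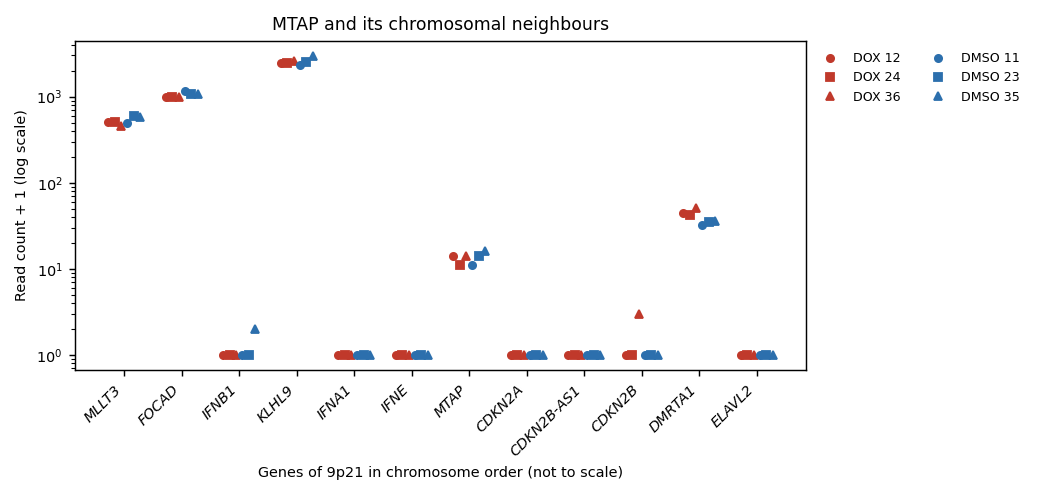
Read count plus 1 on a log scale (y axis) in each library for MTAP and 11 genes of 9p21 in chromosome order (x axis, not to scale), DOX in red and DMSO in blue. MTAP holds 10 to 15 reads per library, CDKN2A, CDKN2B-AS1, IFNA1, IFNE and ELAVL2 hold 0, and KLHL9 and FOCAD hold from 977 to 2979.

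Levels can be set side by side between genes only per length. Per kilobase of exon, by GENCODE 29, the highest were OAZ1 at 150 ± 7.05 CPM per kilobase in DOX and 133 ± 18.5 in DMSO, and ODC1 at 148 ± 10.2 in DOX and 156 ± 14.4 in DMSO (mean ± SD, n = 3 per group). These overlapped in both groups. SMS followed at 79.5 ± 0.958 in DOX and 80.4 ± 14.4 in DMSO, AZIN1 at 73.6 ± 3.55 in DOX and 83.6 ± 3.57 in DMSO, and SRM at 52.6 ± 1.90 in DOX and 60.2 ± 8.11 in DMSO. SMS and AZIN1 were level in DMSO within their spread. AMD1, SMOX and SAT1 lay from 18.2 to 32.3 CPM per kilobase in DOX and from 23.5 to 28.9 in DMSO, where they did not differ beyond their spread. OAZ2 stood at 9.62 in DOX and 8.18 in DMSO, and MTAP at 0.0286 in DOX and 0.0298 in DMSO. These lengths join all annotated exons of a gene, which gave MTAP 14617, OAZ2 7671 and AMD1 7027 bases and lowers the level of a gene whose main transcript is shorter.

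Among themselves the members split by how DMSO 11 stood. For AMD1, SMS, OAZ1, OAZ2, SMOX and MTAP, 6 of the 10, DMSO 11 was nearer to the DOX mean than to the mean of DMSO 23 and DMSO 35, as in 69.4% of all genes tested. For ODC1, SRM, SAT1 and AZIN1 it was not. MTAP held only 10 to 15 reads per library, so its place in this split rests on few reads. AMD1 deviated from its 6-library mean by 0.16 to 0.23 in DOX and by 0.30, -0.54 and -0.37 in DMSO 11, 23 and 35 (log2 CPM). SMOX ran the other way, by -0.40 to -0.24 in DOX and by -0.31, 0.73 and 0.48 in DMSO 11, 23 and 35. Which of the DMSO libraries represents the untreated state was not tested. The genes most like ODC1 in log2 CPM over the 6 libraries, by Pearson's r among 9311 genes that averaged 10 CPM or more, were ANXA4 (0.97), XRCC4 (0.97) and SSBP1 (0.96), a description of 6 points that share the same libraries.

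**Figure D4:**
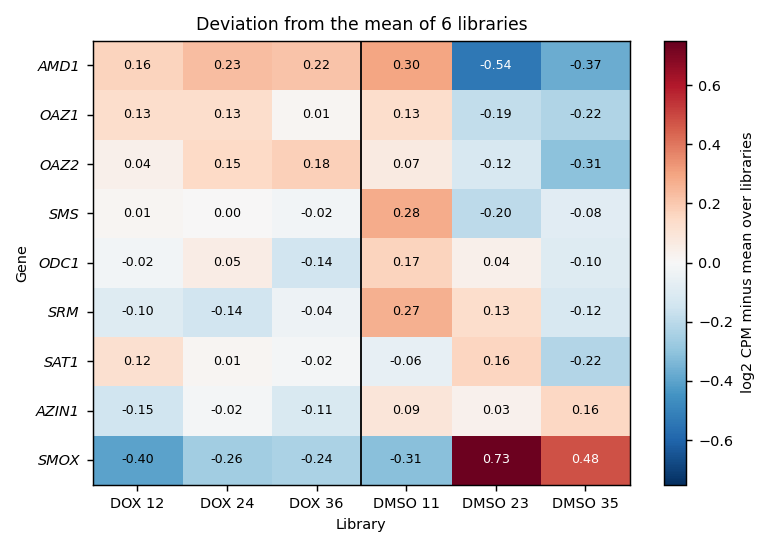
Deviation of log2 CPM from each gene's mean over the 6 libraries (colour and printed value) for the 9 members that averaged 10 CPM or more (rows) in DOX libraries (left) and DMSO libraries (right). AMD1, OAZ1 and OAZ2 are below their means in DMSO 23 and DMSO 35 and SMOX is above its mean there, while DMSO 11 has the same sign as the DOX libraries in these 4 genes.

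Ratios of counts within a library do not depend on the scaling between libraries, and they set enzyme and inhibitor side by side. They were chosen after the values of the members had been seen, so they carry no test. There were 0.840, 0.883 and 0.837 ODC1 reads per OAZ1 read in DOX and 0.958, 1.09 and 1.02 in DMSO 11, 23 and 35. There were 0.858, 0.940 and 0.953 AZIN1 reads per OAZ1 read in DOX and 1.01, 1.21 and 1.36 in DMSO 11, 23 and 35. In both ratios every DOX library was below every DMSO library, DMSO 11 was the lowest DMSO library, and the difference on the log2 scale was -0.26 and -0.37 (-0.31 and -0.49 without DMSO 11). Of the 8 other members that averaged 10 CPM or more, 4 had a ratio to OAZ1 that was lower in every DOX library. These were ODC1, SRM, SMS and AZIN1. Of all tested genes 18.1% had such a ratio, but that share was not limited to genes of 10 CPM or more. All these ratios share OAZ1, whose own fold change was positive, so they are not independent. The ratio of AMD1 to SRM was 2.22, 2.40 and 2.20 in DOX and 1.88, 1.16 and 1.56 in DMSO 11, 23 and 35, again with no overlap. Over all 36 pairs of these 9 members, 12 ratios had no overlap, where 30.2% of single tested genes had no overlap in CPM. Each of these 12 held AMD1 or an antizyme, as do most of the 36 pairs, and pairs that share a gene are not independent. No share over all gene pairs was computed. The ratio of SMOX to SAT1 was 0.768, 0.912 and 0.945 in DOX and 0.926, 1.64 and 1.79 in DMSO 11, 23 and 35, with DMSO 11 among the DOX libraries. A read ratio reflects transcript length as well as number, and it says nothing of protein, on which antizyme and ODC1 act.

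**Figure D5:**
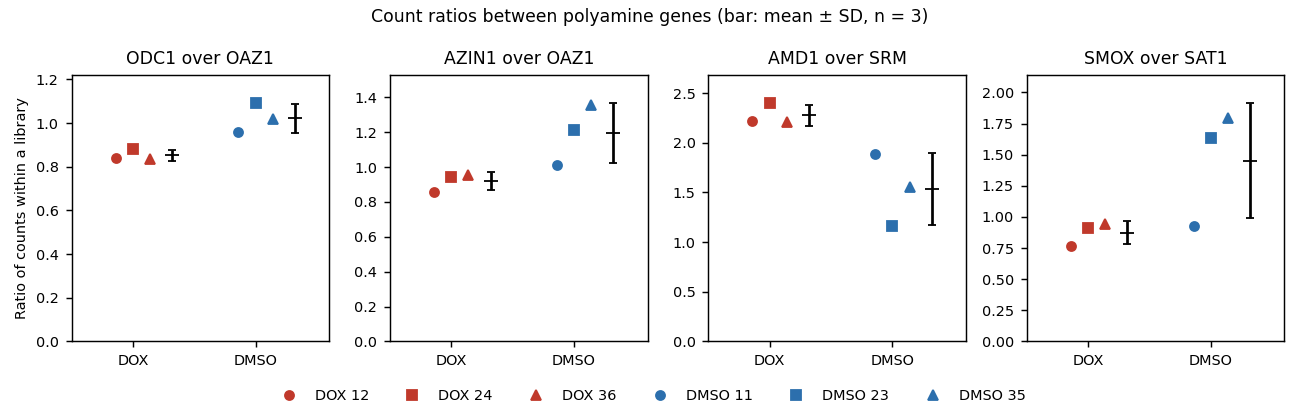
Ratio of read counts of 2 genes within each library (y axis, from 0), DOX in red and DMSO in blue, with the mean ± SD of 3 libraries as a black bar. ODC1 and AZIN1 over OAZ1 are lower in all DOX libraries and AMD1 over SRM higher, while SMOX over SAT1 overlaps through DMSO 11.

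The rest of the polyamine pathway was read from 6 further lists with 44 genes, of which 34 were tested. EdgeR and limma voom called 0 of them, and their median log2 fold change was -0.07. An unadjusted edgeR p under 0.05 was found for 12 of the 34, against 26% of all genes. They were 3 of 6 tested genes in methionine salvage, 3 of 7 in the methionine cycle and 4 of 8 in transport. The others were 1 of 4 in hypusine synthesis and 1 of 5 in ornithine and arginine supply. DESeq2 called 2 higher and 3 lower in DOX, where it called 3.37% of all genes higher and 6.44% lower. The DESeq2 counts per list that follow stand against the same shares. Without DMSO 11, edgeR called 9 of the 35 list genes tested in that fit higher and 12 lower. It called 23.7% of all genes higher and 25.7% lower there, so each call without DMSO 11 below stands against 49.4% of all genes called. In the methionine salvage steps after MTAP, which rebuild methionine from its product, DESeq2 called 1 of 6 tested genes higher and 1 lower. The dioxygenase ADI1 had 62.3, 60.7 and 52.7 CPM in DOX and 46.8, 30.2 and 29.2 CPM in DMSO 11, 23 and 35, with a log2 fold change of 0.73 ± 0.18 (DESeq2 adjusted p = 0.00791, edgeR 0.0922). The enolase-phosphatase ENOPH1 had 117, 135 and 133 CPM in DOX and 166, 173 and 163 CPM in DMSO 11, 23 and 35, at -0.39 ± 0.09 (DESeq2 adjusted p = 0.00813, edgeR 0.0892). Neither gene overlapped between groups, and DMSO 11 lay with the other DMSO libraries for ENOPH1 and on the side of DOX for ADI1. Without DMSO 11 the fold changes were 0.98 for ADI1 and -0.39 for ENOPH1 (edgeR adjusted p = 1.10e-08 and 0.000109). GOT1, a transaminase that can close the salvage cycle, stood at -0.67 ± 0.30 and was not called by either tool (adjusted p = 0.202 by edgeR and 0.108 by DESeq2). It was -0.98 without DMSO 11, where edgeR called it (adjusted p = 4.47e-05), and -0.30 without DMSO 23 (adjusted p = 0.559).

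In the methionine cycle, 7 of 9 genes were tested and DESeq2 called 1 lower. MTRR, which keeps methionine synthase active, had 75.6, 78.6 and 72.5 CPM in DOX and 84.9, 100.4 and 109 CPM in DMSO 11, 23 and 35, with a log2 fold change of -0.38 ± 0.10 (DESeq2 adjusted p = 0.0340, edgeR 0.101), and -0.47 without DMSO 11 (edgeR adjusted p = 7.96e-06). MAT2A, which makes the S-adenosylmethionine that AMD1 uses, had 547, 548 and 499.9 CPM in DOX and 500.01, 295 and 323 CPM in DMSO 11, 23 and 35. DMSO 11 was level with DOX 36, and which of these libraries is higher, and so whether the groups overlap, depends on the normalisation factor of DMSO 11. The log2 fold change of 0.51 ± 0.19 was not called (edgeR adjusted p = 0.143, DESeq2 0.0690). It was 0.78 without DMSO 11 (edgeR adjusted p = 6.54e-08). AHCY, which clears S-adenosylhomocysteine, stood at -0.09 ± 0.14 and at 0.08 without DMSO 11 (edgeR adjusted p = 0.326 in the second fit).

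Hypusine synthesis spends spermidine to modify the translation factor EIF5A, and DESeq2 called 1 of its 4 tested genes lower. DHPS, the enzyme of the first step, had 73.1, 77.1 and 74.9 CPM in DOX and 93.6, 91.0 and 86.5 CPM in DMSO 11, 23 and 35. Every DOX library was below every DMSO library, and DMSO 11 was the highest. DHPS had a log2 fold change of -0.27 ± 0.08 (DESeq2 adjusted p = 0.0476, edgeR 0.101), and -0.24 without DMSO 11 (edgeR adjusted p = 0.00386). EIF5A itself stood at 0.01 ± 0.14, with a 95% interval of -0.32 to 0.33, and at 0.18 without DMSO 11 (edgeR adjusted p = 0.0543).

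Among 9 transport genes, 8 were tested and DESeq2 called 1 higher, CAV1, the caveolae coat protein, at 4.19, 4.13 and 4.10 CPM in DOX and 2.32, 2.91 and 1.99 CPM in DMSO 11, 23 and 35 (log2 fold change 0.78 ± 0.18, DESeq2 adjusted p = 0.0140, edgeR 0.0892). CAV1 was at 0.75 without DMSO 11 (edgeR adjusted p = 0.00124). The P-type ATPase ATP13A3 stood at 0.15 ± 0.09, and SLC3A2, the shared heavy chain of amino acid transporters, at -0.42 ± 0.20, and neither was called (edgeR adjusted p = 0.325 and 0.212). Without DMSO 11 both were called by edgeR, ATP13A3 at 0.21 (adjusted p = 0.0106) and SLC3A2 at -0.64 (adjusted p = 3.18e-07). In ornithine and arginine supply, 5 of 10 genes were tested and 0 called by either tool, with 1 unadjusted edgeR p under 0.05. The arginine importer SLC7A1 stood at -0.35 ± 0.13 and the ornithine aminotransferase OAT at 0.26 ± 0.17 (edgeR adjusted p = 0.155 and 0.357). Without DMSO 11 both were called by edgeR, SLC7A1 at -0.48 (adjusted p = 1.78e-05) and OAT at 0.51 (adjusted p = 7.28e-06), while OAT was at 0.14 without DMSO 35 (adjusted p = 0.703) and at 0.15 without DMSO 23 (adjusted p = 0.697). ARG1, OTC and ASS1, enzymes of the urea cycle, held 7, 10 and 22 reads over all libraries and were not tested. Of 6 further regulators and breakdown enzymes, 4 were tested and 0 called by either tool, with 0 unadjusted edgeR p under 0.05. SAT2 stood at -0.23 ± 0.13 and SATL1 at -0.29 ± 0.16, and without DMSO 11 both passed edgeR's test, SAT2 at -0.32 (adjusted p = 0.0115) and SATL1 at -0.40 (adjusted p = 0.0180).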

How the data were processed

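RNA of RPMI-8402 cells was sequenced in 3 DOX and 3 DMSO samples. The authors deposited raw counts for each Ensembl gene, and a second table with their DOX over DMSO comparison: per the file headers a mean normalised signal, log2 fold changes with standard errors, a statistic or score, and p-values. The submitters' processing notes name STAR 2.5.2a, featureCounts, DESeq2 1.12.4 and hg19. The annotation release and strand setting are not given in the sources used here. Count columns show the group but none of the labels' replicate numbers. Spike-in rows (92, all at 0) were left out.

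Genes that passed filterByExpr were scaled by TMM. The main test was the robust quasi-likelihood test of edgeR 4.0.16 in R 4.3.3, on group alone, and p-values were adjusted by Benjamini-Hochberg over 15949 genes (threshold 0.05). Standard errors are the log2 fold change divided by the square root of F. A prior count of 2 was added for log2 CPM. Alternatives were DESeq2 1.42.0, voom from limma 3.58.1, other scalings and filters, a threshold of 0.01, a non-robust fit and leaving out each library. The edgeR fit was tested on simulated data. AZIN2 was matched by Ensembl identifier. The authors' fold changes had the sign of DOX over DMSO for 15829 of 15949 genes. Exon lengths and chromosome order came from GENCODE 29 and promoter windows from RefSeq, both on GRCh38. Genes named were the 10 members, MYC and MYCN, and the 3 genes most correlated with ODC1. Each further list gave up to 4 called members and its 2 genes with the highest mean CPM. Others, named at few or 0 counts, were chosen after their values were seen. Members and lists were chosen with earlier results of these data known. Figures were drawn with matplotlib.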

Additional observations from a re-analysis of the deposited data

How the results depend on the processing

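The count of polyamine genes called by edgeR was 0 under limma voom, other scalings, other filters, a non-robust fit, a threshold of 0.01 and without each library but DMSO 11. DESeq2 called 1, and leaving out single libraries gave 0 to 5. The count over all genes was 5, against 1383 by DESeq2, 1761 with no filter on low counts, 1 at a threshold of 0.01 and 0 to 8109 with a library left out, with 4150 genes at an unadjusted edgeR p under 0.05. No paired analysis was possible because the count columns carry none of the replicate numbers of the labels. No member had several identifiers, so summing over them was not run. SLC25A2 of the supply list and the B-cell marker CD79A had 2, and the one with more counts was used. Signs turned only for values near 0. SMS was at 0.0182 under upper quartile scaling and ran from -0.114 to 0.137 with a library left out, SAT1 from -0.0200 to 0.175, MTAP from -0.181 to 0.0599, AHCY from -0.194 to 0.0807, EIF5A from -0.0858 to 0.177 and KLHL9 from -0.103 to 0.0384, and EIF5A was at -0.00645 with no filter. With no filter edgeR also called ENOPH1, ADI1, MTRR, SLC7A1, CAV1 and MYCN. The scalings tried moved the median of all genes to at most 0.03. The AMD1 fold change ran from 0.20 to 0.66 and that of SMOX from -0.91 to -0.44 with a library left out. At 10 to 15 reads per library, MTAP had a 95% interval of -0.74 to 0.62.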
